A study of Mus musculus with 4 samples.

Results

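Mpo, Elane, Prtn3, Ctsg and Ms4a3 are transcribed at the promyelocyte stage of neutrophil formation, when the primary (azurophil) granules are built. They were taken by symbol from the gene list, 5 of its 32544 genes, and followed from stem cells to mature neutrophils, along the monocyte branch, through the other cells of the marrow and between the genotypes. Bone marrow of 10-week-old mice was profiled in 4 libraries, 2 labelled WT (wild type) and 2 labelled YAP1 heterozygote. YAP1 is the transcriptional co-activator controlled by the Hippo pathway, and a heterozygote keeps 1 normal allele. No other allele and no treatment is named for any group, the cell type in which the allele is altered and the sort gates are not given in the sources used here, and the labels do not say that the 2 libraries of a group came from separate animals. All p-values therefore measure the spread between libraries, which may be technical.

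Elane (neutrophil elastase), Prtn3 (proteinase 3) and Ctsg (cathepsin G) encode serine proteases, Mpo encodes the peroxidase that makes hypochlorous acid, and Ms4a3 encodes a membrane-spanning protein with no protease activity. Of these, the granule proteins are made in promyelocytes and carried for the life of the neutrophil, while their mRNAs disappear early. The serine proteases among them are trimmed by the dipeptidyl peptidase cathepsin C and packed around the proteoglycan serglycin. Later waves of transcription fill the secondary and the gelatinase granules, so the mRNA of a granule protein marks when it was made and not which cells hold it. Monocytes arise from the same granulocyte-monocyte progenitors and carry some of the same granule proteins.

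On GRCm38, Prtn3 (ENSMUSG00000057729) lies on the plus strand of chromosome 10 at 79874476-79883174, and Elane (ENSMUSG00000020125) follows it at 79886247-79888215, 3072 bases further on. Mpo (ENSMUSG00000009350) is on the plus strand of chromosome 11 at 87793581-87804413, Ctsg (ENSMUSG00000040314) on the minus strand of chromosome 14 at 56099881-56102574, and Ms4a3 (ENSMUSG00000024681) on the minus strand of chromosome 19 at 11629496-11640851. Because the 5 transcripts peaked in 1 class of cells from 4 chromosomes, the stretch before each RefSeq transcription start is shown (RefSeq, build GRCm38.p6), 5′ to 3′ on the gene's own strand. The windows are chr11:87793534-87793580 (plus) for Mpo, chr10:79886062-79886246 (plus) for Elane, chr10:79879417-79879613 (plus) for Prtn3, chr14:56102575-56102824 (minus) for Ctsg and chr19:11640852-11641101 (minus) for Ms4a3. Each starts 250 bases before the RefSeq start and ends at the last base before an annotated exon is met; the Prtn3 window lies within the longer span of that gene, between exons of its other transcripts. Capitals mark GGAAGT, the core bound by ETS factors such as PU.1.
Mpo: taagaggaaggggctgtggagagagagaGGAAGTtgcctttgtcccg
Elane: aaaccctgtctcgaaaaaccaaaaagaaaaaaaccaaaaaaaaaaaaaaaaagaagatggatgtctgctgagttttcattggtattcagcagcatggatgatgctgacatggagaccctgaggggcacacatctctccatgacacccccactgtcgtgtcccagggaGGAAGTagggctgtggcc
Prtn3: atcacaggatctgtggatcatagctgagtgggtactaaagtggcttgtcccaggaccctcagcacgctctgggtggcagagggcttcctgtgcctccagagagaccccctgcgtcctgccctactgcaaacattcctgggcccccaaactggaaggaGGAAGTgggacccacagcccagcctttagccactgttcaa
Ctsg: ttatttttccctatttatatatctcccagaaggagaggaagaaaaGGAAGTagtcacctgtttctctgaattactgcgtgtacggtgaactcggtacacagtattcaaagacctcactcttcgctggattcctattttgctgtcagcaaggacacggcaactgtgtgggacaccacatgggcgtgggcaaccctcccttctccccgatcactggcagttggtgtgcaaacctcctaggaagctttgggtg
Ms4a3: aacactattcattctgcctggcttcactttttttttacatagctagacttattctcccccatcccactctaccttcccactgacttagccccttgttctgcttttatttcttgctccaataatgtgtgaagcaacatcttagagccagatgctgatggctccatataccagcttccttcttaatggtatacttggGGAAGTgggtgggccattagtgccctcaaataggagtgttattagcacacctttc
Positions are counted from the RefSeq start, and the 250 bases before it were searched. GGAAGT was found in all 5, on the gene's own strand, beginning at -222 in Mpo, -83 in Elane, -93 in Prtn3, -205 in Ctsg and -55 in Ms4a3, and on either strand in 19.7% of 32851 mouse promoters of the same length. The longer GAGGAAGT, which contains it, was in 3 of the 5 (Mpo, Elane and Prtn3) and in 2.44% of promoters. A TATAA at -31 in Elane and -32 in Prtn3 is 1 more feature the neighbouring pair share; TATAA was in 3 of the 5 and in 22.8% of promoters. AACNG (MYB) was in 4 of the 5 and in 74.2% of promoters, TGTGGT (RUNX) in 1 and in 14%, and GCAAT (a shorter C/EBP core) in 2 and in 23.1%. The full C/EBP motif TTGCNNCAA was in 1 (Ms4a3) and in 1.74%. The motifs were chosen after the sequences were seen, and a match is a description of letters.

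The libraries held 112806900 to 119855112 UMIs (unique molecular identifiers, which count molecules once), and 10565 to 13231 cells per library were kept, with median depths of 5518 to 6747 UMIs. Between 27 and 62 cell barcodes were shared by any pair of libraries. Cells were clustered without the 5 genes and clusters were named from fixed markers, so every name below means "like" that cell. The granulocyte-monocyte progenitor or promyelocyte class (GMP) was led by Nkg7, Prss57, Gstm1 and Cst7. The stem and progenitor class (HSPC) was led by Prg2, Ctla2a and Cd34, and its highest-scoring marker list was that of eosinophils. Of 1425 cells in the mature neutrophil cluster 1, 1159 came from WT replicate 1, as did 508 of 539 in the immature neutrophil cluster 8; both were led by the inflammatory genes Cxcl2 and Acod1. Yap1 itself gave 6, 7, 0 and 6 UMIs over all kept cells of WT replicates 1 and 2 and YAP1 heterozygote replicates 1 and 2; the count of 0 allows up to 0.0284 CPM, by counting error only. A 3′ count does not separate alleles, so these few UMIs check no genotype.

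The 5 genes were among the most abundant transcripts of GMP-like cells and together made up 3.88% ± 0.155 (SD, n = 4 libraries) of all their UMIs. Levels are given as CPM, the UMIs of a gene among 1000000 UMIs of a class in a library. Transcripts were counted at the 3′ end, so levels are not scaled by length. How reads shared between similar genes were handled is not given, so orders between genes are orders of UMI counts. In WT replicates 1 and 2 and YAP1 heterozygote replicates 1 and 2, Elane stood at 13480, 15138, 14905 and 14608 CPM. Prtn3 stood at 11034, 12925, 11584 and 12262 CPM in the same order, and Mpo at 6658, 6062, 6558 and 6303 CPM. The elastase transcript was the highest in every library and none of the 3 ranges overlapped. Ctsg was at 3781, 4332, 4072 and 3966 CPM. Ms4a3 was the lowest of the 5, at 1760, 1993, 1855 and 1929 CPM. A GMP-like cell held on average 388 UMIs of Elane, 319 of Prtn3, 171 of Mpo, 108 of Ctsg and 50.3 of Ms4a3. After each cell was thinned to 1500 UMIs (9 of 1663 cells were too shallow), 74.8% of GMP-like cells held all 5 transcripts and 2 cells held none. This class, 3.495% of the kept cells, contained 64.5% (Mpo) to 77.6% (Elane) of each gene's UMIs in the whole data set.

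**Figure D1:**
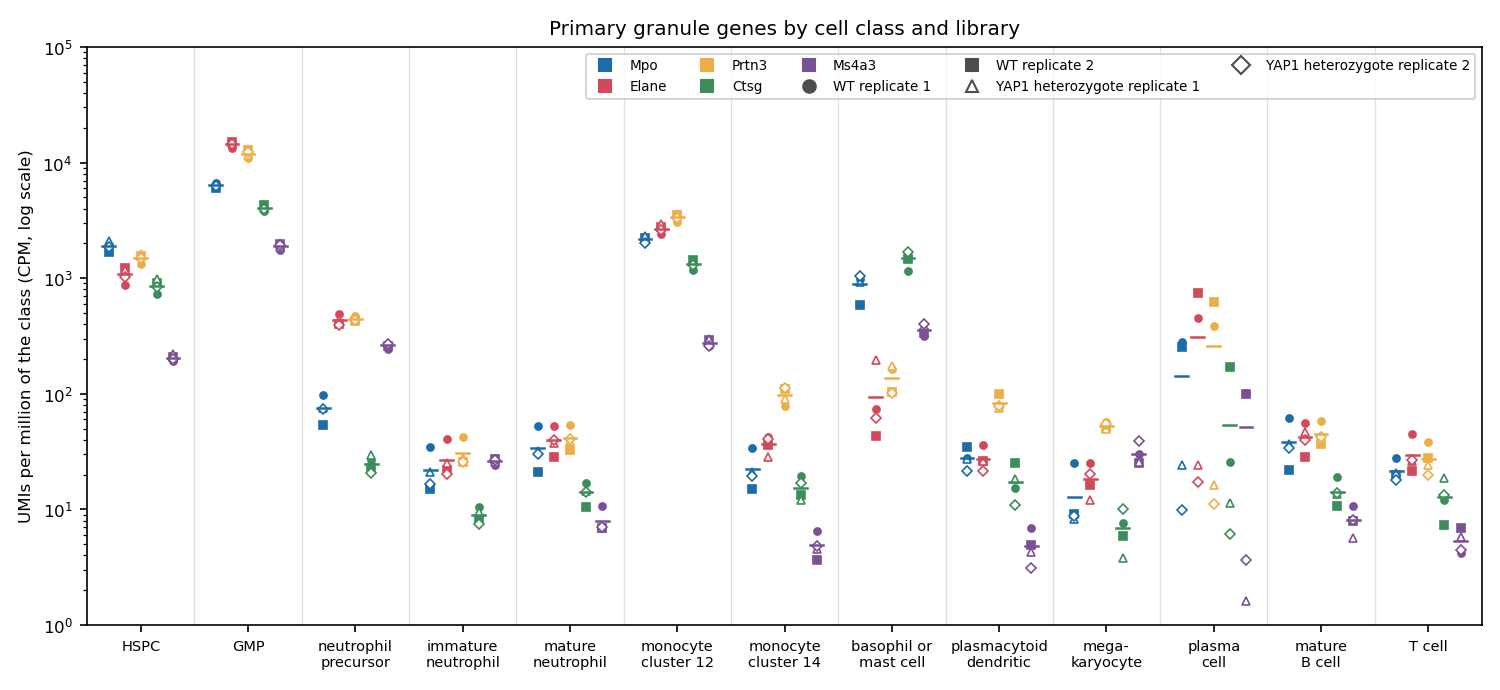
Level of each of the 5 genes in chosen classes of cells, in CPM on a log axis, with monocyte clusters 12 and 14 shown apart. Points are the 4 libraries and short bars their means. Colours mark the genes and marker shapes the libraries. Filled markers are WT and open markers YAP1 heterozygote. GMP-like cells hold the highest level of all 5 genes, from 1760 CPM (Ms4a3) to 15138 CPM (Elane).

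The order of the classes below GMP was shared by Elane and Prtn3 and differed for the other 3 genes. Elane fell from GMP to monocytes (1702 to 1957 CPM), HSPC (876 to 1238) and neutrophil precursors (396 to 494), with no overlap between neighbours. Prtn3 kept that order, with 2168 to 2401, 1340 to 1624 and 426 to 472 CPM. Mpo put HSPC (1675 to 2113 CPM) before monocytes (1322 to 1542) and basophils (592 to 1037), again without overlap. The peroxidase gene thus put the stem and progenitor class next to GMP when the monocyte class was taken whole. That class pools clusters with very different levels, described further on, and its place in these orders depends on the pooling. For Mpo, the log2 fold change of monocyte cluster 12 alone minus GMP was -1.82, and that of GMP minus HSPC was 2.30. Cluster 12 alone thus stood closer to GMP than HSPC did. Ctsg was highest after GMP in basophils (1157 to 1699 CPM), and its ranges in HSPC (732 to 978) and monocytes (833 to 954) overlapped. Ms4a3 followed GMP with basophils (315 to 400 CPM) and neutrophil precursors (246 to 276), and its ranges in HSPC (191 to 223) and monocytes (170 to 198) overlapped. Classes in which a few cells held most of the UMIs are described further on and were left out of these orders.

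Transcripts of all 5 genes were already present in the HSPC class, at levels that differed between the genes. Mpo was at 1952, 1675, 2113 and 1877 CPM in the 4 libraries, Prtn3 at 1340, 1563, 1624 and 1502 CPM and Elane at 876, 1238, 1172 and 1028 CPM. The peroxidase transcript led in every library and the 3 ranges did not overlap. Ctsg averaged 864 ± 106 CPM and Ms4a3 205 ± 13.5 CPM (SD, n = 4). Of 1056 HSPC-like cells thinned to 1500 UMIs (10 were too shallow), 496 held Prtn3, 408 held Mpo, 280 Ctsg, 181 Elane and 102 Ms4a3, while 420 held none and 72 held all 5. Mpo was found without Elane in 249 cells and Elane without Mpo in 22; Prtn3 was found without Elane in 340 cells and Elane without Prtn3 in 25. Prtn3 was the only transcript of the 5 in 162 cells and Mpo in 68, against 13 for Elane, 8 for Ctsg and 7 for Ms4a3. In the same cells before thinning, 79.8% held a Prtn3 UMI and 63.4% an Mpo UMI.

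Cells that should lack the transcripts give the background of such shares, the source of which was not tested. In mature B cells 6.66% of thinned cells held Prtn3, 6.19% Elane, 5.98% Mpo, 1.78% Ctsg and 1.28% Ms4a3 (219 of 5493 cells too shallow; unthinned shares 12.1%, 11.4%, 10.4%, 4.01% and 2.33%; median 2773 UMIs against 13081 in HSPC). In T cells the thinned shares were 4.86%, 4.68%, 4.02%, 1.86% and 0.830% (median 4543.5 UMIs). In HSPC they were 47.2%, 16.8%, 38.5%, 26.7% and 9.83%, each above both lymphocyte classes.

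From HSPC to GMP all 5 genes rose, against a background in which 34.8% of 12863 genes tested were higher and 36.0% lower (70.8% in all; edgeR quasi-likelihood test with Benjamini-Hochberg adjustment at 0.05, with library as a term). Elane rose most, by a log2 fold change of 4.29 (SE 0.142), which is 19.6-fold, followed by Ms4a3 at 3.74 (SE 0.0693), Prtn3 at 3.53 (SE 0.107), Ctsg at 2.77 (SE 0.0796) and Mpo at 2.30 (SE 0.122), which is 4.91-fold. The edgeR adjusted p was 1.36e-15 or lower for each. All 5 were higher in GMP in 4 of 4 libraries.

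Other genes of the primary granule and of protease processing followed in part. Some genes of this and the other lists also named classes, among them Prss57, Cst7, Fcnb, Gfi1, Cebpe and Gata2. At this and the later steps their direction is in part set by the naming. In that list of 16 genes, 15 were tested from HSPC to GMP, 13 rose and 1 fell, with a median log2 fold change of 1.60 against -0.03 over all genes tested. Fcnb (ficolin B, 5.75), Prss57 (a serine protease of the same granules, 3.43), Cd63 (a granule membrane tetraspanin, 2.53) and Cst7 (cystatin F, 2.25) rose most. The exception was Ctsc, the gene of the activating peptidase cathepsin C, which fell by 0.91 on the log2 scale to 12.6 ± 1.46 CPM in GMP. Of 7 tested protease inhibitor genes 4 rose, among them Wfdc21 (3.71) and Serpinb1a (3.12), the gene of a cytosolic inhibitor of elastase, cathepsin G and proteinase 3. The other 3 fell, led by Serpina3g (-4.14) and Serpinb9 (-3.18). Among 13 myeloid transcription factor genes 6 rose, including Cebpe (3.28), Cebpd (2.65), Gfi1 (2.46) and Spi1 (1.35), the gene of PU.1. As many fell, among them Gata2 (-6.55), Klf4 (-3.62), Irf8 (-3.23) and Myc (-1.15). Of 15 tested chromosomal neighbours of the 5 genes (24 in all), 4 rose and 6 fell, with a median of -0.45, and Prss57 rose most among them.

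A finer order was made by placing 5809 cells of the 5 neutrophil stages on a diffusion pseudotime built without the 5 genes and cut into 20 equal bins. The first bin, all HSPC, held Prtn3 at 533 ± 119 CPM, Mpo at 225 ± 35.0, Ctsg at 70.6 ± 40.9, Elane at 25.4 ± 7.84 and Ms4a3 at 17.4 ± 12.5 (SD, n = 4). Elane was thus at the level of T cells (29.8 ± 10.2 CPM) there while Prtn3, its neighbour on the chromosome, was far above it (27.4 ± 7.82 CPM in T cells). Mpo and Ctsg passed 10% of their peak in bin 3 and the others in bin 4; Ctsg did so in bin 4 when the order was built with the 5 genes or without YAP1 heterozygote replicate 1. Between bins 3 and 4, where the cells changed from all HSPC to 51.4% GMP, Elane went from 452 ± 195 to 8257 ± 672 CPM and Mpo from 1439 ± 316 to 6777 ± 161 CPM.

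Mpo, Ctsg and Ms4a3 peaked in bin 5, at 8314 ± 199, 6241 ± 462 and 2308 ± 154 CPM. Elane and Prtn3 peaked in bin 6, at 19532 ± 1048 and 15545 ± 1146 CPM. For Prtn3, Mpo and Ms4a3 the levels of bins 5 and 6 differed by less than the SD of bin 6. Prss57 peaked in bin 6, Fcnb in bin 8, Cebpe in bin 10, the secondary granule genes Camp, Ngp and Ltf in bins 11, 13 and 14, and the gelatinase granule gene Mmp8 in bin 17. The peak of Prtn3 moved to bin 5 when the order was built with the 5 genes included; the peaks of the other 4 stayed in their bins.

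Shutdown was steep and differed between the genes. Ctsg was last at or above 10% of its peak in bin 7, Mpo, Elane and Prtn3 in bin 8 and Ms4a3 in bin 9. Between bins 8 and 9, where GMP-like cells gave way to precursors only, Mpo went from 1058 ± 87.3 to 38.0 ± 19.5 CPM and Elane from 5044 ± 480 to 306 ± 105 CPM. Ms4a3 went only from 866 ± 102 to 341 ± 37.0 CPM. In bins 10 to 12 Ms4a3, the lowest of the 5 in GMP, had the highest mean, at 177 ± 15.5, 126 ± 9.09 and 155 ± 31.1 CPM, beside 156 ± 43.3, 78.6 ± 19.1 and 94.2 ± 54.6 CPM of Prtn3. This held in all 4 libraries only in bin 11. Prtn3 was above Ms4a3 in both WT libraries in bin 10, and both Prtn3 and Elane were above it in WT replicate 1 in bin 12.

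**Figure D2:**
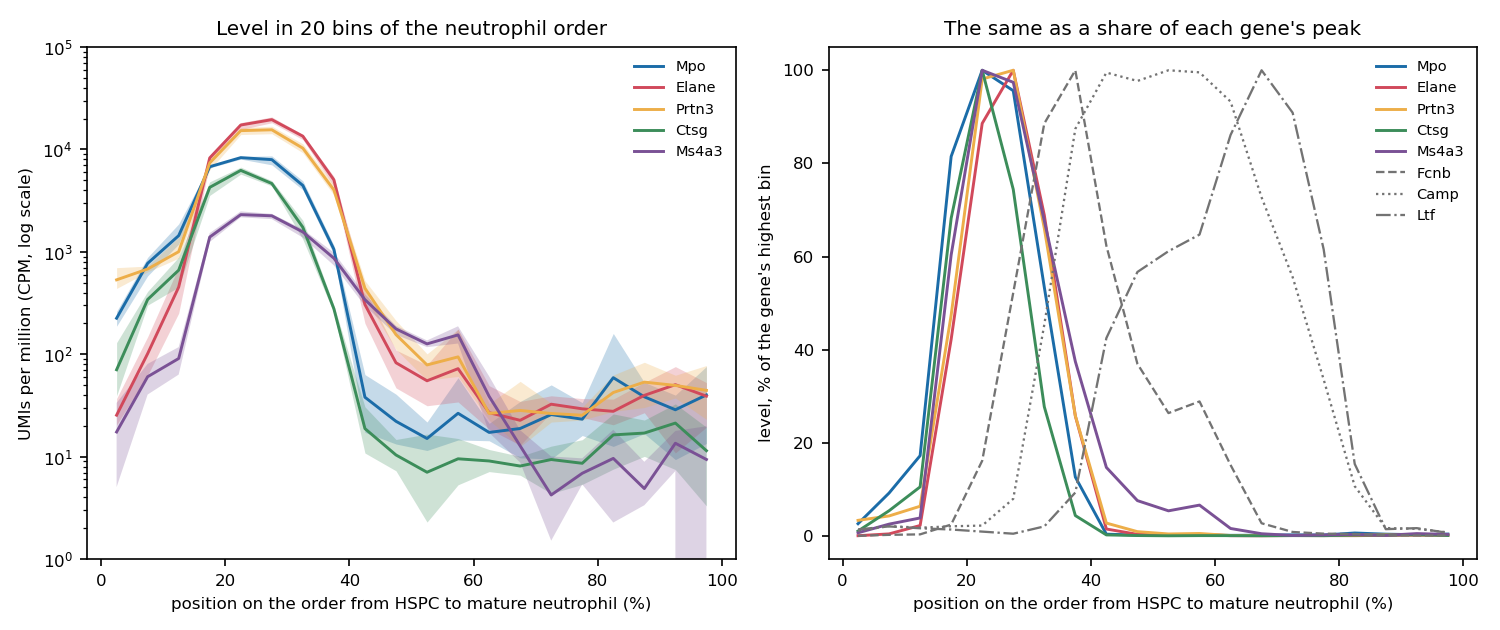
Level of the 5 genes along the neutrophil order (20 bins of equal cell number, HSPC at the left, mature neutrophils at the right). The left panel is in CPM on a log axis, with lines for the mean and shading from the lowest to the highest of 4 libraries. The right panel gives the means as percent of each gene's highest bin, with Fcnb, Camp and Ltf in grey. The genes peak in bins 5 and 6 and fall between bins 8 and 9; Ms4a3 falls later than the other 4.

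In the neutrophil precursors, the dividing cells that follow GMP, all 5 genes were lower than in GMP (edgeR, adjusted p 2.1e-22 or lower; 37.7% of 12863 genes were lower, 35.9% higher and 73.5% changed). Ctsg fell by 6.90 on the log2 scale (SE 0.0994) and Mpo by 6.0 (SE 0.146). Elane and Prtn3 fell by 4.64 (SE 0.144) and 4.32 (SE 0.111), and Ms4a3 by 2.41 (SE 0.0637), which is 5.30-fold. What remained was 443 ± 20.4 CPM of Prtn3, 433 ± 44.9 of Elane, 262 ± 13.1 of Ms4a3, 75.4 ± 18.4 of Mpo and 24.9 ± 3.88 of Ctsg. Ms4a3 was found in 27.3% of thinned precursors (64 of 3075 cells too shallow; 78.8% unthinned), more than Prtn3 (22.6%) or Elane (18.4%). It was the only transcript of the 5 in 433 of 3011 cells. Mpo, in 7.06% of thinned precursors, and Ctsg, in 2.68%, were near the B cell shares.

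The other lists changed less uniformly at this step. Of the 15 tested primary granule and processing genes 9 fell and 4 rose (median log2 fold change -0.47 against -0.03 over all genes). Cst7 (-4.59), Srgn, the gene of serglycin (-3.75), Calr, a chaperone of Mpo folding (-3.54), and Prss57 (-2.53) fell most, and Lyz2 (lysozyme) rose by 3.42. The transcription factor genes Myc (-3.90), Cebpa (-2.60), Myb (-2.23) and Irf8 (-1.43) fell. All 9 secondary and gelatinase granule genes rose, with a median of 3.26.

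From precursors to immature neutrophils all 5 fell again (edgeR, adjusted p 9.02e-09 or lower; background 29.9% lower, 39.5% higher and 69.4% changed). The log2 fold changes were -3.47 (Elane), -3.32 (Prtn3), -2.79 (Ms4a3), -1.27 (Mpo) and -0.94 (Ctsg). Immature neutrophils held Ms4a3 at 24.4, 27.4, 25.8 and 26.6 CPM in the 4 libraries, above the 4.23 to 10.7 CPM of T and B cells without overlap. Within the class, cluster 21 held 38.2 ± 2.98 CPM of Ms4a3 and cluster 10, led by Mmp8 and Mmp9, held 6.44 ± 1.57. Elane (27.0 ± 9.18 CPM), Prtn3 (30.6 ± 7.98), Mpo (21.7 ± 8.83) and Ctsg (8.91 ± 1.30) were at or below their mean levels in mature B cells, which were 42.7, 44.5, 38.7 and 14.3 CPM.

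In mature neutrophils Ms4a3 fell once more, by 1.75 on the log2 scale (SE 0.0949; edgeR, adjusted p 2.19e-15). The other 4 were called higher than in immature neutrophils, with log2 fold changes of 0.42 to 0.64 (edgeR, adjusted p 3.1e-05 to 0.00267; background 29.2% higher, 34.4% lower and 63.5% changed). The UMIs per cell behind that difference were fewer and not more. Mpo had 0.187 UMIs per immature and 0.136 per mature neutrophil, and Elane 0.232 and 0.160, as the median depth went from 8367 to 3671 UMIs. The mature neutrophils also held the 5 transcripts in a mix close to that of lymphocytes. Of the UMIs of the 5 genes, Prtn3 made up 30.5% in mature neutrophils and 30.5% in mature B cells, Elane 28.9% and 28.8%, Mpo 24.3% and 25.3%, Ctsg 10.4% and 9.7%, and Ms4a3 5.8% and 5.6%. The thinned shares of mature neutrophils with a UMI (387 of 11160 cells too shallow) were 6.33% for Prtn3, 5.69% for Elane and 5.20% for Mpo, below those of B cells. They were 2.15% ± 0.526 for Ctsg and 1.32% ± 0.313 for Ms4a3 (SD, n = 4), above the B cell means of 1.78% ± 0.29 and 1.28% ± 0.403 by less than the SD. No expression in mature neutrophils is read from these shares.

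**Figure D3:**
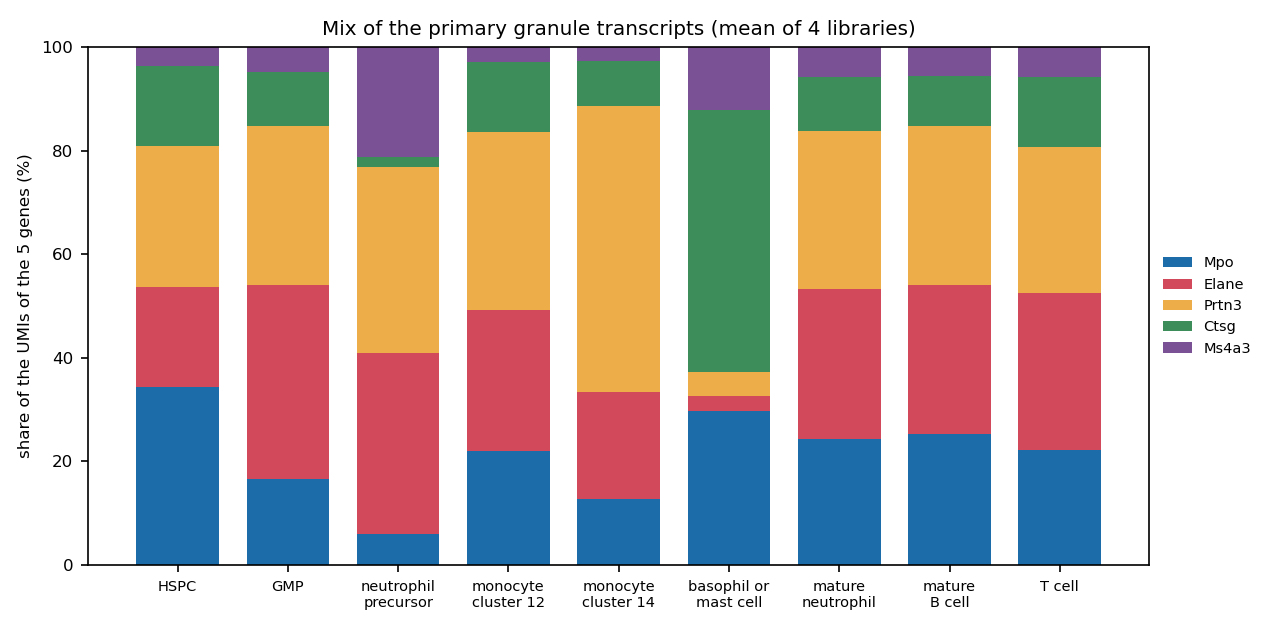
Share of each gene among the UMIs of the 5 genes, in percent, for classes of cells (bars are means of 4 libraries). Elane leads in GMP-like cells (37.4%), Mpo in HSPC (34.3%), Ctsg in basophils (50.5%) and Prtn3 in monocyte cluster 14 (55.1%), while mature neutrophils (Prtn3 30.5%) and mature B cells (Prtn3 30.5%) have a similar mix.

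In clusters built without the 5 genes, the monocyte class held the transcripts mainly in 1 of its 2 clusters. Cluster 12 (2167 cells, median 20106 UMIs, led by F13a1 and Lgals1) held 3381 ± 229 CPM of Prtn3, 2682 ± 213 of Elane, 2166 ± 119 of Mpo, 1333 ± 112 of Ctsg and 276 ± 20.6 of Ms4a3 (SD, n = 4). Prtn3 led there in place of Elane. Cluster 14 (2990 cells, median 7925 UMIs, led by Fn1 and S100a4) held 97.7 ± 15.5 CPM of Prtn3, and 37.0 of Elane, 22.5 of Mpo, 15.4 of Ctsg and 4.88 of Ms4a3. In cluster 14 Prtn3 was in 11.99% of thinned cells, against 6.66% of B cells and 4.86% of T cells. The shares of Elane (4.78%), Mpo (3.61%), Ctsg (2.11%) and Ms4a3 (0.593%) were close to those of lymphocytes, and 0 of 2956 cells held all 5. In cluster 12, 14.6% of 2155 thinned cells held all 5 and 25.3% held none.

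Over both clusters, as the class was defined, all 5 genes were lower than in GMP, with log2 fold changes of -2.36 (Mpo), -3.24 (Elane), -2.61 (Prtn3), -2.40 (Ctsg) and -3.57 (Ms4a3) (edgeR, adjusted p 5.12e-16 or lower; background 33.4% lower, 36.0% higher and 69.4% changed). Against neutrophil precursors, the class was higher in 4 genes, Ctsg by 4.50 (SE 0.0914), Mpo by 3.64 (SE 0.132), Prtn3 by 1.71 (SE 0.0996) and Elane by 1.4 (SE 0.127), and lower in Ms4a3, by -1.16 (SE 0.0625) (edgeR, adjusted p 7.86e-11 or lower; background 45.5% higher, 33.6% lower and 79.0% changed). Against immature neutrophils all 5 were higher, by 1.63 (Ms4a3) to 5.44 (Ctsg) (background 47.6% higher and 85.1% changed). These 2 comparisons turned with the makeup of the class. Cluster 14 alone, an alternative added after seeing the data, was lower than precursors in Mpo (-2.35), Elane (-4.15), Prtn3 (-2.78) and Ctsg (-1.28), where 34.1% of the genes tested were lower and 77.8% changed. With clusters built on all genes including the 5, the class was lower than precursors in Elane (-1.09) and no longer differed by test in Mpo (-0.04; edgeR, adjusted p = 0.796) or Prtn3 (-0.09; edgeR, adjusted p = 0.415). There the monocyte cluster led by Fn1 and F13a1 had 1399 cells, against 2167 in cluster 12. A further GMP cluster of 1082 cells was led by Prg2, Calr and Cd34. Which cells changed class was not tested, so the cluster 12 levels depend on where progenitors are divided from monocytes.

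The transcription factor genes that changed between GMP and monocytes were 7 higher and 5 lower of 13. Klf4 (7.51) and Irf8 (4.57), both known from monocyte formation, were higher, and Gfi1 (-4.46) and Cebpe (-4.09), known from neutrophil formation, were lower. Klf4 and Irf8 were also markers that named monocytes, Gfi1 one of GMP and Cebpe one of precursors. Their direction is therefore in part set by the naming. In the primary granule and processing list 6 were higher and 7 lower, with Ctsc up by 4.54 and Cd63 down by 4.84 on the log2 scale.

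Basophils, or mast cells (947 cells, median 5890 UMIs, led by Prss34 and Mcpt8), held a different subset. Ctsg was at 1157, 1464, 1699 and 1672 CPM, Mpo at 975, 592, 928 and 1037 CPM and Ms4a3 at 315, 335, 387 and 400 CPM in the 4 libraries. Prtn3 averaged 136 ± 38.3 and Elane 93.5 ± 69.1 CPM. Ctsg was found in 364 of 940 thinned cells (7 were too shallow), Mpo in 244 and Ms4a3 in 183, against 74 for Prtn3 and 55 for Elane. The thinned shares of Prtn3 (7.78%) and Elane (5.61%) were near those of B cells (6.66% and 6.19%), while those of Ctsg (39.95%), Mpo (26.7%) and Ms4a3 (19.98%) were far above. A single cell held 347 of the 481 Elane UMIs in YAP1 heterozygote replicate 1. Ctsg lies beside the basophil protease gene Mcpt8 and near the granzyme gene Gzmb on chromosome 14, which basophils held at 15868 and 268 CPM. Ms4a3 lies near Ms4a2, the gene of a chain of the high-affinity IgE receptor, at 822 CPM in basophils. Mcpt8 and Ms4a2 were also markers that named this class. These are only some of the listed neighbours of Ctsg and Ms4a3, and no pattern of a locus is read from them. Near Elane and Prtn3, the protease gene Cfd was at 0.613 and Misp at 0.111 CPM in GMP. Ptbp1, an RNA-binding protein gene between Misp and Prtn3, was at 128 ± 12.5 CPM, and on the far side of Cfd Med16, R3hdm4 and Arid3a were at 13.5, 57.98 and 70.7 CPM. Prss57 further along chromosome 10 was at 385 ± 10.4 CPM.

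Across 19 classes the genes most alike to each member were often other members. Pearson's r of log2(CPM + 1) was 0.976 between Mpo and Ctsg and 0.975 between Elane and Prtn3, among 6339 genes. Outside the 5, Dmkn was nearest to Prtn3 (0.939) and Elane (0.924), Gstm1 to Mpo (0.863), Papss2 to Ctsg (0.864), and Mfsd13a (0.877) and Prss57 (0.873) to Ms4a3. These values describe classes that share libraries and differ in depth, and carry no test.

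In the classes where none of the genes is known to be used, levels were low and rarely stood out. T cells held 21.5 ± 4.34 CPM of Mpo, 29.8 ± 10.2 of Elane, 27.4 ± 7.82 of Prtn3, 12.8 ± 4.61 of Ctsg and 5.34 ± 1.24 of Ms4a3. Megakaryocytes held Ms4a3 at 30.1, 25.1, 25.9 and 39.1 CPM, above the 4.23 to 10.7 CPM of lymphocytes in every library, and in 4.36% of thinned cells against 1.28% of B cells (37.6% unthinned; median 18799 UMIs). Plasmacytoid dendritic cells held Prtn3 at 76.5, 100.5, 75.5 and 78.6 CPM, above the 36.7 to 58.2 CPM of B cells. The thinned share of these cells with Prtn3 was not above that of B cells, so no order is read between them.

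A small number of cells with very many of these UMIs set the level in several classes. In 12 classes (lymphocytes, plasma cells, erythroid cells, megakaryocytes, dendritic cells, macrophages and nonclassical monocytes), 20 of 16537 cells held at least 100 UMIs of the 5 genes, and together 9690 of the 21789 such UMIs (44.47%). There were 7, 7, 3 and 3 of them in the 4 libraries, and 14 of the 20 also held at least 5 UMIs of Fcnb and Prss57 summed, 2 other genes of the same stage. None was a T cell, mature B cell, conventional dendritic cell, erythroblast or megakaryocyte. Among B cell precursors 4 such cells held 48.66% of the UMIs of the 5 genes, and had a median of 40912.5 UMIs in all against 3159 for the class. Among erythroid progenitors 4 held 49.97% (3 of them in WT replicate 1), among macrophages 2 held 53.04% (both in YAP1 heterozygote replicate 1) and among NK or innate lymphoid cells 1 held 61.97%.

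Plasma cells, led by Jchain and immunoglobulin genes, showed the 1 difference between genotypes that passed the test. WT replicates 1 and 2 gave 21 and 77 plasma cells, and YAP1 heterozygote replicates 1 and 2 gave 25 and 37. Elane was at 448 and 750.1 CPM in WT and at 24.4 and 17.2 CPM in YAP1 heterozygote plasma cells. Prtn3 was at 385 and 616 against 16.2 and 11.04 CPM, and Mpo at 279 and 256 against 24.4 and 9.81 CPM. Ms4a3 was at 101 and 99.2 against 1.62 and 3.68 CPM, and Ctsg at 25.8 and 171 against 11.4 and 6.13 CPM. Both WT libraries were above both YAP1 heterozygote libraries for all 5 genes. The heterozygote levels were at or below those of mature B cells. In edgeR's quasi-likelihood test 4 of the 5 were called (10 of 4126 genes, 0.242%, were called in this class, and 0.218% were lower). The log2 fold changes, YAP1 heterozygote minus WT, were -4.94 for Prtn3 (SE 0.42), -4.81 for Ms4a3 (SE 0.424), -4.60 for Elane (SE 0.415) and -3.71 for Mpo (SE 0.364), each with an edgeR adjusted p of 0.00233 or 0.00167. Ctsg, at -3.42 (SE 0.859), did not pass (edgeR, adjusted p = 0.383), but was called without WT replicate 1 (adjusted p 1.11e-05) and without either YAP1 heterozygote library (3.44e-11 and 0.0468). The other genes called included Fcnb (-4.89), Serpinb1a (-3.18) and Nkg7 (-4.96), all GMP or neutrophil precursor genes, and the immunoglobulin genes Ighg1 (14.92) and Iglc1 (-4.96).

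The difference rested on 5 of the 160 plasma cells. WT replicate 1 held 2 cells with 271 and 226 UMIs of the 5 genes and WT replicate 2 held 3 with 1504, 1194 and 901, together 4096 of the 4296 UMIs (95.34%). No other plasma cell of any library held more than 6. All 5 cells also held Fcnb (6 to 99 UMIs) and Prss57 (3 to 15) beside 374 to 1597 UMIs of Jchain. Their median depth was 44545 UMIs against 22477.5 for the whole class. The plasma cell marker list was at 20390 CPM in the 5 cells against 50390 CPM in the whole class. The secondary granule transcript Camp was at 683 and 604 UMIs in the 2 cells of WT replicate 1. It was at 1606 and 1442 UMIs in the WT replicate 2 cells with 1194 and 901. In the cell with 1504 it was at 4. Most other plasma cells held far fewer Camp UMIs than 604. Among the exceptions, Camp was at 972 and 710 UMIs in WT replicate 2 cells with 4 and 5 UMIs of the 5 genes. It was at 883 in a YAP1 heterozygote replicate 1 cell with 0. The GMP marker list, 12 genes that do not include the 5, was at 1239 and 1013 CPM in WT and at 637 and 639 CPM in YAP1 heterozygote plasma cells, with 10, 12, 10 and 10 of its genes detected and Dmkn at 0 in 3 of the 4 libraries. The same list was at 932 to 1006 CPM in mature B cells and 1299 to 1444 CPM in T cells, so both WT plasma levels were above B cells and below T cells. The neutrophil precursor list (10 genes, all detected) was at 1528 and 918 against 567 and 207 CPM. The groups overlapped in the immature neutrophil list (6720 and 7233 against 8025 and 3379 CPM; 11 genes, all detected) and in the monocyte list (1354 and 1005 against 1346 and 1153 CPM; 7 to 10 of 10 genes detected). What cells of these lists contribute to the difference was not tested. In a description added after seeing the data, 7 cells with at least 5 UMIs of Fcnb and Prss57 summed (2, 5, 0 and 0 in the 4 libraries) were left out. They held 497 of 528 and 3608 of 3681 UMIs of the 5 genes in WT replicates 1 and 2. Without them the 5 genes made up 0.00866% and 0.0043% of UMIs in WT and 0.0078% and 0.00478% in YAP1 heterozygote plasma cells, so the groups overlapped. Fcnb was itself called in this comparison, so the choice of these cells fixes the loss of the difference and no test is read from it.

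**Figure D4:**
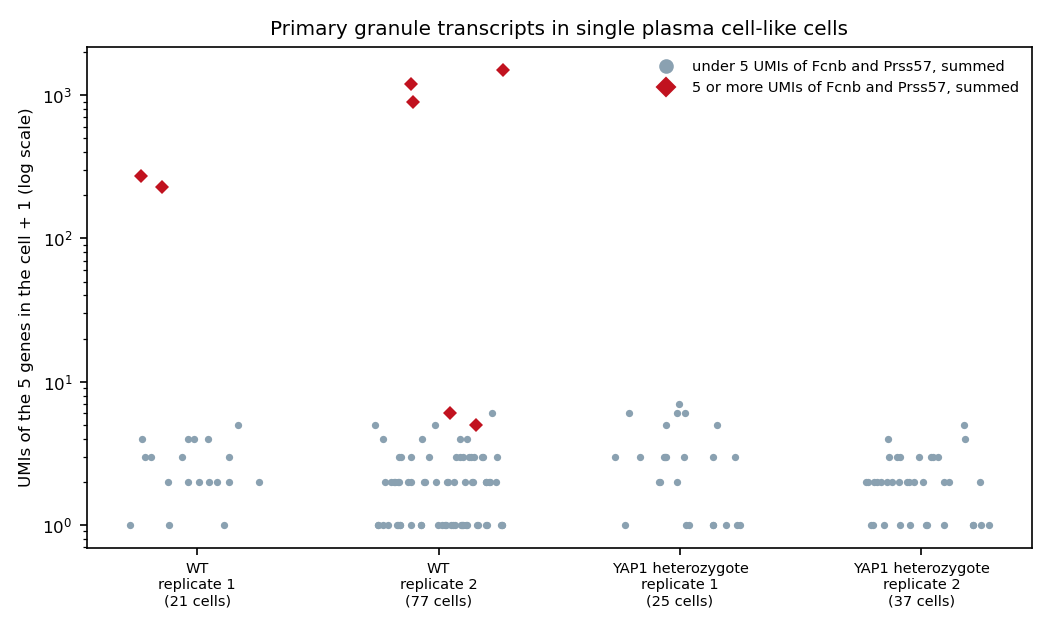
UMIs of the 5 genes together in each plasma cell, by library, as UMIs + 1 on a log axis; points are single cells, and diamonds mark the 7 with at least 5 UMIs of Fcnb and Prss57 summed. In WT replicates 1 and 2, 2 and 3 cells stand above 100 UMIs, and every other cell holds 6 or fewer.

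In GMP, HSPC, monocytes and neutrophil precursors no difference between WT and YAP1 heterozygote libraries passed the test. In GMP-like cells the WT and heterozygote ranges overlapped for all 5, and the log2 fold changes ran from -0.000115 (Ctsg, SE 0.0873) to 0.06 (Elane, SE 0.0727), with an edgeR adjusted p of at least 0.999 (2 of 10866 genes, 0.0184%, were called). In HSPC they ran from 0.04 to 0.13 (0.0274% of genes called), in monocytes from -0.04 to 0.06 (0.0% called) and in neutrophil precursors from -0.09 to 0.13 (0.0097% called), with SEs up to 0.2. In basophils both heterozygote libraries were above both WT libraries for Ctsg (1699 and 1672 against 1157 and 1464 CPM; log2 fold change 0.28, SE 0.149; edgeR, adjusted p = 0.868) and Ms4a3 (387 and 400 against 315 and 335 CPM; 0.19, SE 0.139; edgeR, adjusted p = 0.936). Elane there was at 1.11 (SE 0.41; edgeR, unadjusted p 0.0204, adjusted p = 0.675; 0.0872% of genes called). It was called with the replicate number as a block, with no filter on low counts and in 3 of the 4 fits that leave out 1 library. Over 18 classes 84 gene and class pairs could be tested, and the 4 called were those in plasma cells (0.0302% of all 162089 pairs of a gene and a class were called). Of the 79 pairs outside plasma cells none was called by edgeR, 14 had an unadjusted p below 0.05 and the lowest adjusted p was 0.2 (Prtn3 in macrophages, log2 fold change 3.48). DESeq2 called that 1 pair. Leaving out 1 library raised the pairs called in all classes from 4 to 14 (without WT replicate 1), 21 (without WT replicate 2), 10 and 14 (without YAP1 heterozygote replicates 1 and 2); without WT replicate 2 these included Elane in GMP, at 0.15 (SE 0.0362; edgeR, adjusted p = 0.0193). Of the 14 pairs with an unadjusted p below 0.05, 5 were the genes in erythroid progenitors, 3 were in NK or innate lymphoid cells and 2 in macrophages, classes in which single cells held much of the level. The other 4 were Prtn3 and Ctsg in B cell precursors, Elane in basophils and Prtn3 in T cells. Among B cell precursors 4 cells held 48.66% of the UMIs of the 5 genes. A single basophil held most of the Elane UMIs of YAP1 heterozygote replicate 1. Prtn3 in T cells was at -0.57 (SE 0.241, edgeR unadjusted p 0.037), and no T cell held 100 UMIs of the 5 genes. On simulated counts for GMP, a 2-fold change was recovered in 83.58% of genes and a 1.5-fold change in 49.25%. In plasma cells a 4-fold change was recovered in 65.15%, a 2-fold change in 7.463% and a 1.5-fold change in 5.97%. The changed genes were drawn at random from all genes tested, at any level, so these rates are not rates for the 5 genes. Single cells with very many UMIs were not simulated.

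**Figure D5:**
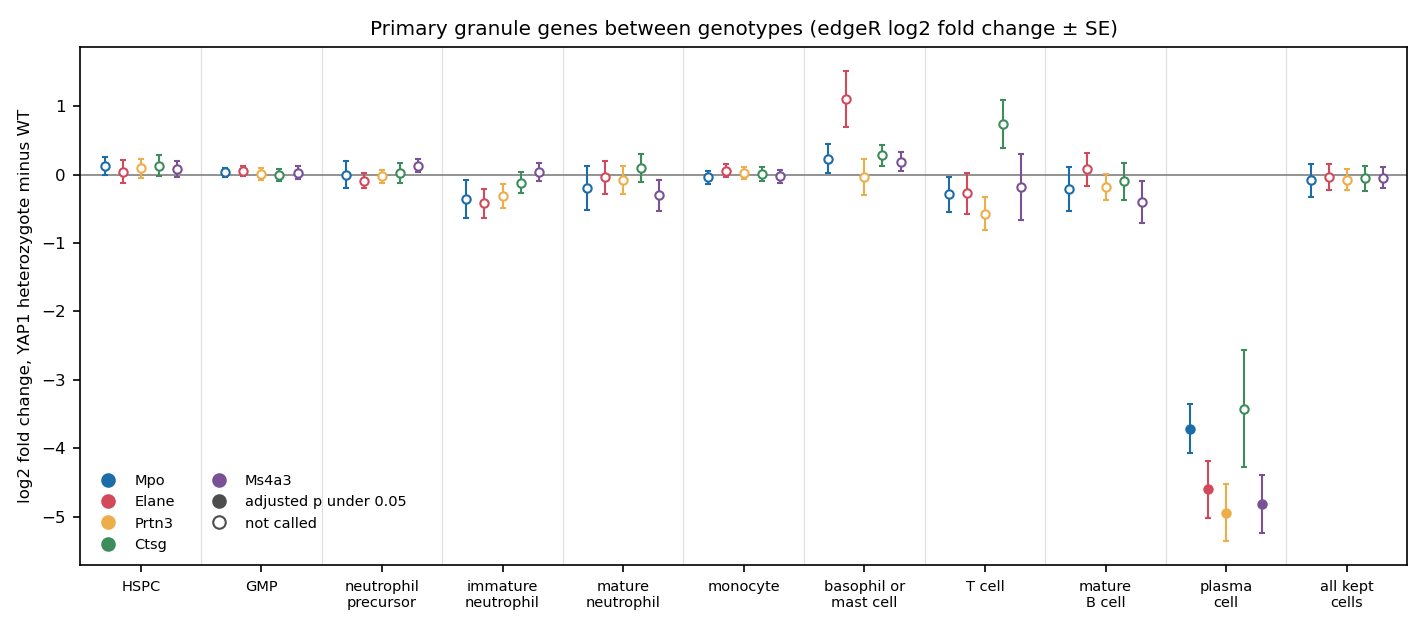
log2 fold change of the 5 genes, YAP1 heterozygote minus WT, with SE bars from edgeR, by class of cells. Values in GMP-like cells lie between -0.000115 and 0.06, and those in plasma cells between -4.94 and -3.42.

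Summed over all kept cells, where fewer cells of a class and less RNA per cell cannot be told apart, Mpo was at 1267 and 853 CPM in WT and at 1151 and 823 CPM in YAP1 heterozygote libraries. Elane was at 2142 and 1755 against 2182 and 1568 CPM, and Prtn3 at 1947 and 1656 against 1896 and 1484 CPM. The replicate 1 libraries were above the replicate 2 libraries in both groups, and the groups overlapped for all 5 genes. GMP-like cells were 4.107% and 3.141% of WT and 4.155% and 2.698% of YAP1 heterozygote cells. The log2 fold changes were -0.09 to -0.04 (edgeR, adjusted p at least 0.999; 0 of the genes tested, 0.0%, were called), the lowest unadjusted edgeR p was 0.645, and DESeq2 called none. By exact permutation of the library labels, two-sided, p ran from 0.667 to 1.0, where 0.333 is the smallest possible.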

How the data were processed

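Droplet single-cell RNA sequencing counted 3′ transcript ends in bone marrow cells of 4 mouse libraries. The authors deposited UMI counts per gene and barcode, whole numbers with no normalization, as tested on the files. Per the file headers Cell Ranger 5.0.0 wrote the counts; per the submitters' processing notes the tools were Cell Ranger 3.0.0 and Seurat 4.3.0, with the builds GRCm38 and mm10, and which version made the counts could not be settled. Whether reads shared between similar genes were split is not given in the sources used here.

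A barcode stayed in with 500 or more UMIs, 200 or more genes and no more than 10% of UMIs from mitochondrial genes, and doublets called by Scrublet (3.383% to 4.403% of a library) were removed. Counts scaled to 10000 per cell and log-transformed gave 2000 variable genes without the 5 genes studied, 30 principal components, 15 neighbours and 31 Leiden clusters (resolution 1.0; scanpy 1.11.5, Python 3.11.15). A cluster took the name of the best-scoring of its marker lists with most markers among its 10 leading genes; 2 clusters stayed unnamed. Names were rebuilt here and may differ from the study's.

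Counts were summed per library and class (at least 20 cells in every library) and tested with edgeR 4.0.16 (quasi-likelihood, filterByExpr, TMM; R 4.3.3), with Benjamini-Hochberg adjustment over all genes tested and a threshold of 0.05. The scripts were tested on simulated data. Alternatives were DESeq2 1.42.0, its size factors, no filter, the replicate number or no library as a term, each library left out, clusters built with the 5 genes, doublets kept, and single cells left out. The genes and lists were chosen with earlier results of these data known. The lists share genes with the naming markers, so changes of those genes between classes are in part built in. The rule for named genes was the 5 in every comparison, and from each list up to 4 called genes per direction by size of change. Depth limits the rarer classes: at 21 to 77 plasma cells a library, single cells can set a level.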

Additional observations from a re-analysis of the deposited data

Results flagged for a closer look

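In 16 of 95 pairs of a gene and a class, 1 library lay far from the other 3 (a gap to the nearest above Dixon's critical value for 4 samples); chance gives about 1 in 20 groups, here 4.75. In 11 of the 16 a single cell held over 40% of the UMIs of that gene in that library.

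In NK or innate lymphoid cells, YAP1 heterozygote replicate 2 stood apart for all 5 genes. It held Prtn3 at 287 CPM, Mpo at 222, Ctsg at 192, Elane at 176 and Ms4a3 at 38.8 CPM, where the other libraries held 33.8 to 44.0, 22.0 to 48.5, 11.3 to 17.2, 26.0 to 27.0 and 4.0 to 4.69 CPM. The top cell held 76.8% (Elane) to 93.3% (Ctsg) of these UMIs.

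In erythroid progenitors, WT replicate 1 stood apart for Elane (173 CPM, others 9.26 to 24.1), Mpo (120.5 CPM, others 9.58 to 18.2), Ctsg (40.2 CPM, others 3.90 to 7.64) and Ms4a3 (18.3 CPM, others 2.15 to 4.61), with 44.3% to 66.2% of the UMIs in the top cell. Elane in macrophages was at 498 CPM in YAP1 heterozygote replicate 1 (others 48.4 to 82.3; top cell 59.1%), and Ctsg in plasma cells at 171 CPM in WT replicate 2 (others 6.13 to 25.8; top cell 59.6%).

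In the remaining 5 pairs no cell held more than 19.3%. WT replicate 1 was high for Mpo in conventional dendritic cells (29.9 CPM, others 18.2 to 19.7), Mpo in megakaryocytes (25.2 CPM, others 8.23 to 9.22), Prtn3 in immature neutrophils (42.5 CPM, others 25.9 to 27.96) and Ms4a3 in mature neutrophils (10.6 CPM, others 6.89 to 7.09). WT replicate 2 was high for Prtn3 in plasmacytoid dendritic cells (100.5 CPM, others 75.5 to 78.6).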

How the results depend on the processing

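Of 488 alternative values for 45 single results, 463 kept their direction and side of the threshold, 14 reversed, 1 lost and 6 gained significance and 4 moved. The 14 reversals were log2 fold changes of the monocyte and plasma cell comparisons. With clusters built on all genes, monocyte minus precursor was -0.0377 (Mpo), -1.09 (Elane) and -0.0895 (Prtn3), and monocyte minus immature neutrophil was -1.67 (Ms4a3). With monocyte cluster 14 alone (added after seeing the data), monocyte minus precursor was -2.35 (Mpo), -4.15 (Elane), -2.78 (Prtn3) and -1.28 (Ctsg), and monocyte minus immature neutrophil was -1.08 (Mpo), -0.68 (Elane), -0.35 (Ctsg) and -3.55 (Ms4a3). Without plasma cells with at least 5 UMIs of Fcnb and Prss57 summed (also added), Mpo was 0.49 and Elane 0.38, and plasma calls went from 4 to 0, as the choice of those cells fixes. Pairs called between genotypes went from 4 to 21 with no filter on low counts and to between 10 and 21 with 1 library left out, where the lone library is assumed to vary like the pair in the other group. With called doublets kept they went to 6, by Elane and Prtn3 in T cells. The causes of these changes were not tested. Plasma calls were 4 or 5 with 1 library left out. The peak of Prtn3 moved to bin 5, and the onset of Ctsg to bin 4, in the order built with the 5 genes. Leaving out clusters 1 and 8 (added) changed no call between stages.

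With the replicate number as a block, pairs called rose from 4 to 10 and plasma calls to 5. Deviations of libraries with the same number correlated over genes (r = 0.586 in GMP, 0.731 over all cells), but with 2 pairs the numbers are not shown to pair libraries.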

Other observations

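Within the GMP class the 5 transcripts varied together from cell to cell. Over the cells of 1 library (357 to 510 cells), Pearson's r of their levels ran from 0.276 (Mpo and Ms4a3, YAP1 heterozygote replicate 2) to 0.845 (Elane and Prtn3, WT replicate 2). The cells share a library, and differ in depth and in their place along the order, so the values describe the class and carry no test.

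Ctsc, the gene of the peptidase that activates the serine proteases, was at 350.2 ± 44.8 CPM in monocytes, 113 ± 10.5 CPM in mature B cells and 12.6 ± 1.46 CPM in GMP-like cells, where its substrates' transcripts were highest. Prss57 followed the 5 genes, with 385 ± 10.4 CPM in GMP, 52.3 ± 7.96 in HSPC and 49.4 ± 4.09 in neutrophil precursors.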
